A study of Petunia x hybrida with 6 samples.

Results

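The genes described here are 68 abundant transcripts of the petunia corolla whose mean level differed little between 7PM and 7AM. They were chosen from the same counts that are described: of 35812 gene IDs, 17515 had a summed count of 60 or more over the 6 libraries, and 224 of these had a mean CPM (counts per 1000000 counted reads) of 300 or more at both times. CPM were scaled between libraries with trimmed mean of M-values (TMM) factors. The 68 members are those of the 224 whose ratio of mean CPM, 7PM over 7AM, lay between 0.8 and its inverse, 1/0.8, and whose largest CPM among the 7PM libraries was less than 2 times the smallest. They make up 30.4% of the 224 genes and 0.388% of the 17515. Because the ratio, the levels and the 7PM spread chose the members, these values are given as a description, and their similarity between the times is not a finding. Calls of the members in tests across all genes are given beside the share called over all genes, and support nothing.

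Polyadenylated RNA came from corollas (the whorl of petals) of Petunia x hybrida cultivar Mitchell, a white-flowered petunia known for scent released at night, with 3 libraries at 7PM and 3 at 7AM. The greenhouse lights were on for 14 h (6AM to 8PM) and off for 10 h, so both times lie within the light period. Replicates carry numbers only, with no word on separate plants, so the spread between them may in part be technical, and p-values measure that spread alone. Library totals ran from 17410929 to 18040038 counts at 7PM and from 16497054 to 17277765 at 7AM, and no replicate pair agreed within sampling noise (chi-square per degree of freedom 21.8 to 29.5 at 7PM and 6.61 to 10.9 at 7AM).

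In plant tissues, transcripts held at a high and even level often belong to basic functions such as protein synthesis, the cytoskeleton and energy supply, and such genes are commonly used as internal references in quantitative PCR. Many other plant transcripts follow the light cycle and the circadian clock, and in petunia petals the enzymes of scent formation are a well-known case. The deposited table pairs no ID with a name, product or coordinate, so the members are described by ID, level and spread. Which of them have basic functions was not determined, and the corolla label could not be set against marker genes.

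Most members lay near the lower end of their range of levels. Their mean CPM over the 6 libraries ran from 314.9 to 2852, with a median of 417. In all, 9 members averaged 1000 CPM or more, 16 lay between 500 and 1000 CPM and 43 between 300 and 500 CPM. The lowest count of any member in any library was 3739 and the highest 57842, for which counting error alone gives a coefficient of variation of 1.64% and 0.416%. Counting error was therefore small beside the ratio limits for every member.

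**Figure D1:**
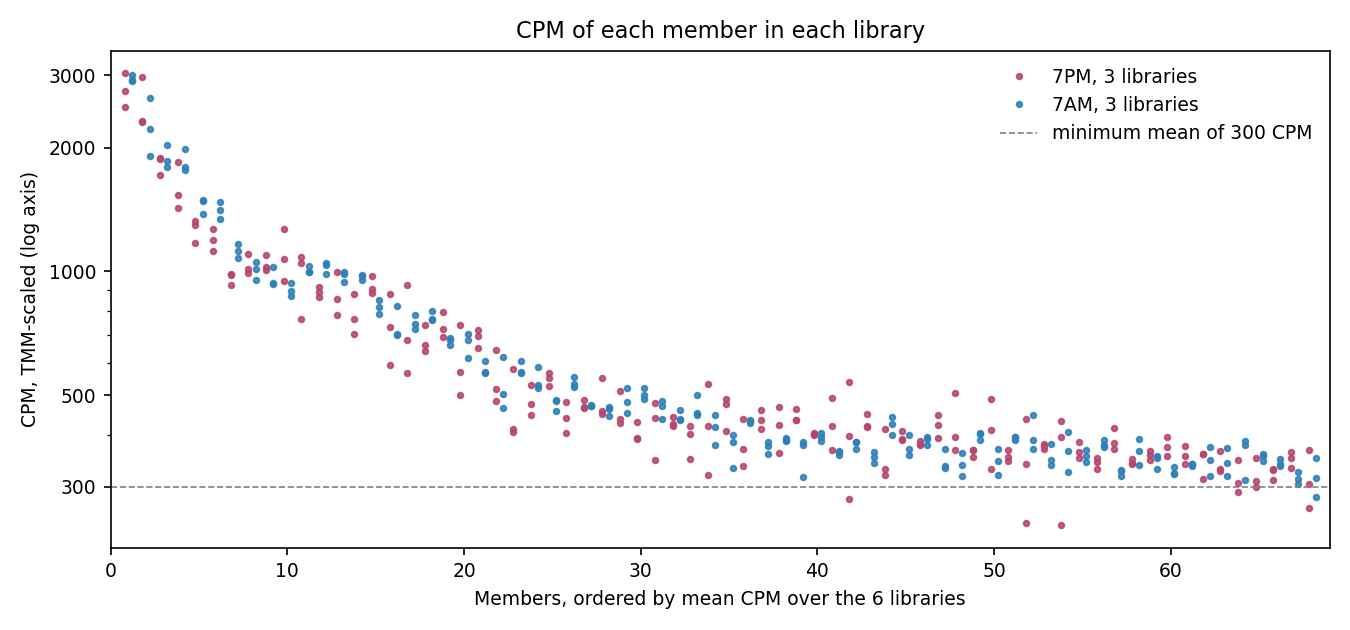
Each of the 68 members is placed by rank of mean CPM on the horizontal axis, with its CPM in the 3 libraries of 7PM (left of each position) and the 3 of 7AM (right) on a log axis. The 9 members at the left average 1000 CPM or more, and several members nearer the right show 7PM points well away from the tight 7AM points.

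The most abundant member was Peaxi162Scf00515g00518. It had 2739.8, 2504 and 3030.1 CPM in 7PM replicates 1 to 3, against 2907, 3009.6 and 2919 CPM in 7AM replicates 1 to 3. The groups overlapped, with only 7PM replicate 3 above the 7AM libraries, and the means were 2758 ± 263 CPM at 7PM and 2945 ± 56.2 CPM at 7AM (SD, n = 3 each), a ratio of 0.936. Peaxi162Scf00047g01123, the next in level, had 2306, 2316 and 2963 CPM at 7PM, against 2639, 2217 and 1911 CPM at 7AM. Its ratio was 1.12, and it had the widest 7AM spread of all members, with a largest over smallest CPM of 1.38.

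Peaxi162Scf00178g00147 had 1712, 1876 and 1886 CPM at 7PM, against 1793, 2023 and 1853 CPM at 7AM, and the ranges overlapped (ratio 0.965). Peaxi162Scf00708g00012 had 1428, 1849.7 and 1532 CPM at 7PM, against 1795, 1981 and 1762 CPM at 7AM. Here 7PM replicate 2 stood within the 7AM range and the other two 7PM libraries below it, giving a ratio of 0.869. Peaxi162Scf00922g00026 had 1169, 1296 and 1326 CPM at 7PM, against 1376, 1489 and 1487 CPM at 7AM. Its groups did not overlap, although the ratio of 0.871 was inside the limits. Of the 9 members at 1000 CPM or more, 6 had a ratio below 1 and 3 above 1, with a median ratio of 0.936. The split was 10 below and 6 above between 500 and 1000 CPM, and 21 below and 22 above between 300 and 500 CPM.

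The evenest member over all 6 libraries was Peaxi162Scf00060g00111. It had 404.5, 403 and 401 CPM at 7PM, against 405, 395 and 388 CPM at 7AM, so that its largest CPM was 1.04 times its smallest. The groups overlapped, and the 7PM libraries lay closer together than in any other member (403 ± 1.86 CPM at 7PM and 396 ± 8.37 CPM at 7AM, SD, n = 3 each). Peaxi162Scf00351g00321 was next, with 388, 382 and 378 CPM at 7PM, against 390.4, 379 and 395 CPM at 7AM. Largest over smallest CPM over the 6 libraries was 1.05 there, and the groups again overlapped.

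The ratio nearest to 1 belonged to Peaxi162Scf00316g00330. It had 465, 487 and 469 CPM at 7PM, against 472, 471 and 474 CPM at 7AM, a ratio of 1.00. The 7AM values of this gene were the closest together of any member, while the 7PM values lay on both sides of them. Peaxi162Scf00290g00059, second nearest to 1, reached its ratio of 0.992 with less even libraries: 359.7, 360.1 and 312 CPM at 7PM, against 374, 348 and 318 CPM at 7AM. A ratio near 1 was thus found both in narrow and in wider members. Over the 6 libraries, largest over smallest CPM was below 1.1 in 4 members and below 1/0.8 in 30 members, and its median was 1.27.

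The limits of the rule cut through a continuous range of ratios. Just inside the lower limit, Peaxi162Scf00038g02031 had 414, 406 and 578 CPM at 7PM, against 566, 571 and 605 CPM at 7AM (ratio 0.803). Just outside, Peaxi162Scf00375g00210 had 408, 334 and 302 CPM at 7PM, against 441, 418 and 448 CPM at 7AM (ratio 0.799). At the upper limit, Peaxi162Scf00282g00515 stood inside with 368, 396 and 506 CPM at 7PM, against 363, 339 and 317 CPM at 7AM (ratio 1.246). Peaxi162Scf00153g01025 stood outside with 471, 511 and 492 CPM at 7PM, against 399.7, 387 and 392 CPM at 7AM (ratio 1.251). Neighbours across each limit thus differed in ratio by less than their libraries differed from each other. At the floor of 300 CPM, Peaxi162Scf00071g00430 was inside with means of 313 ± 52.0 CPM at 7PM and 317 ± 34.6 CPM at 7AM. Peaxi162Scf00102g00214 was outside with 299.95 ± 9.82 CPM at 7PM and 343 ± 7.99 CPM at 7AM (SD, n = 3 each).

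Among the 224 genes of 300 CPM or more at both times, ratios outside the limits were more common than ratios inside. The ratio was above 1/0.8 in 92 genes and below 0.8 in 61, and 71 lay between the limits. It was 2 or more in 35 genes and 0.5 or less in 19. The 7PM spread limit held back 3 of the 71, which leaves the 68 members. Over all 17515 genes, 33.5% had a ratio within the limits at any level.

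**Figure D2:**
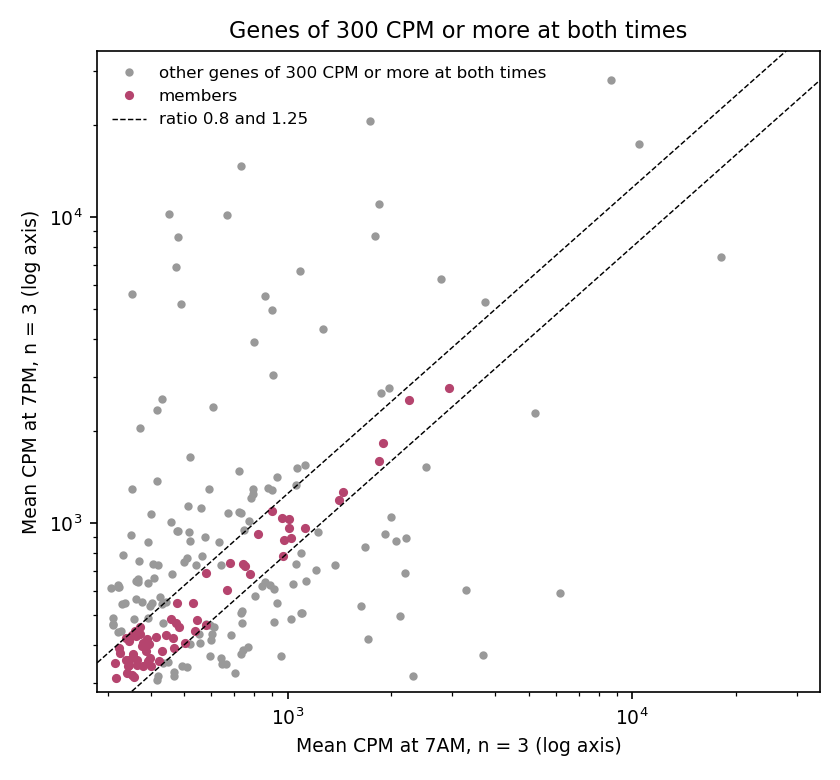
Mean CPM at 7PM is plotted against mean CPM at 7AM (n = 3 each, log axes) for the 224 genes of 300 CPM or more at both times, with the ratio limits of 0.8 and 1/0.8 as dashed lines. The 68 members lie in the band between the lines, at means up to 2758 CPM at 7PM and 2945 CPM at 7AM. The band also holds 3 of the 156 other genes, which the 7PM spread limit held back. Some of the 156 reach higher levels at 1 or both times.

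What counts as steady depended on how the libraries were scaled. TMM sets its factors so that the bulk of genes keeps the same level on average, and its factors were 0.874 ± 0.0189 at 7PM and 1.14 ± 0.0118 at 7AM (SD, n = 3 each). A ratio of 1 on this scale means that a gene changed as the bulk of genes did: the median log2 ratio was -0.02 over the members and -0.05 over all 17515 genes. Scaled to library totals alone, the ratio of each member was lower, by 0.39 on the log2 scale at the median (range -0.40 to -0.39). The median ratio of the members was then 0.754 in place of 0.988, with a range of 0.613 to 0.951, and all 68 ratios were below 1.

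Under library totals 24 of the 68 members were still within the ratio limits, and 44 were below 0.8. The 24 had TMM ratios of 1.05 or more, and the 44 had TMM ratios of 1.04 or less. Peaxi162Scf00316g00330, at a ratio of 1.00 under TMM, had 0.765 under library totals, and Peaxi162Scf00515g00518 had 0.716. Peaxi162Scf00047g01123, with 0.856, stayed within the limits. The whole rule applied to library totals gave 83 genes, and the 24 shared genes were 35.3% of the TMM list and 28.9% of the other list. The 59 genes that met the rule only under library totals had TMM ratios from 1.19 to 1.63. The RNA was not measured per cell, so a fall of most transcripts and a larger share for a few abundant ones cannot be told apart, nor can fewer cells of a type and less RNA per cell.

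**Figure D3:**
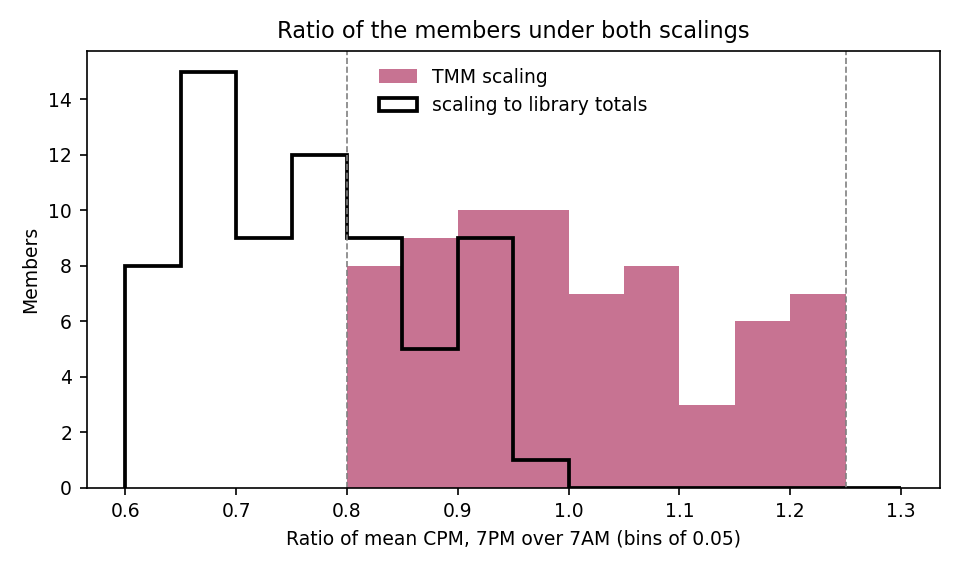
The number of members is shown by ratio of mean CPM, 7PM over 7AM, in bins of 0.05, with TMM scaling (filled) and scaling to library totals (black outline), and dashed lines at 0.8 and 1/0.8. The outline stands at lower ratios than the filled bars, with a median of 0.754 in place of 0.988 and 44 members left of the lower limit.

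The share of reads restates this shift and is no separate result, since the rule held the members near a TMM ratio of 1. The members held 3.693%, 3.695% and 3.803% of all counts in 7PM replicates 1 to 3, against 5.003%, 5.003% and 4.927% in 7AM replicates 1 to 3. The groups did not overlap, which was largely set by the rule and the TMM factors. The 156 other genes of 300 CPM or more at both times held 26.4 ± 0.437% at 7PM and 20.0 ± 0.0758% at 7AM (SD, n = 3 each). On the TMM scale the summed level of the members was 42737 ± 1123 CPM at 7PM and 43540 ± 791 CPM at 7AM, and the libraries of the times overlapped.

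Members also stood lower in the order of abundance at 7PM. The rule held their own levels nearly equal, and a rank counts the genes above a level. The change in rank is therefore not a trait of the members. A rank of 1 is the gene with the highest mean CPM at that time. The rank number was larger at 7PM in 67 of the 68 members, with a median rank of 311 at 7PM and 219 at 7AM. Peaxi162Scf00515g00518 was 42nd at 7PM and 11th at 7AM. Peaxi162Scf00282g00515, the member with the highest ratio, was the exception, at rank 319 at 7PM and 326 at 7AM. The 100 most abundant genes included 7 members at 7PM and 15 at 7AM, and all 7 were also among the 15. These 7 were part of 35 genes that stood in the top 100 at both times.

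The rule limited the spread among the 7PM libraries but not among the 7AM libraries. Even so, largest over smallest CPM was wider at 7PM in 49 of the 68 members and wider at 7AM in 19. Its median was 1.15 at 7PM and 1.08 at 7AM, and its highest value was 1.92 at 7PM and 1.38 at 7AM. The median coefficient of variation of the members was 7.53% at 7PM and 3.84% at 7AM. Variance between libraries exceeded counting error in most members: the median ratio of observed to counting variance was 52.3 at 7PM and 22.0 at 7AM, and it was below 1 in 1 member at 7PM and in 5 at 7AM.

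At 7AM the rule set no limit on spread, but the 7AM libraries entered it through the floor and the ratio. The 7AM spread was below 1.1 in 41 of the 68 members (60.3%) and in 55 of the 156 other genes of 300 CPM or more (35.3%). The median 7AM spread was 1.08 in the members and 1.13 in the others, and the highest was 1.38 and 2.51. The 2 members with the widest 7AM spread were Peaxi162Scf00047g01123, given above, and Peaxi162Scf00668g00049. Peaxi162Scf00668g00049 had 519, 643 and 484 CPM at 7PM, against 620.01, 465 and 504 CPM at 7AM, with 1 library high at each time. The difference in 7AM spread between members and other genes was not tested, since genes are not replicates. The other genes are also those that missed a limit of the rule, so the comparison is not independent of the choice of members. Among the others, 7PM was the wider time in 110 of 156 genes (70.5%), beside 72.1% of the members.

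**Figure D4:**
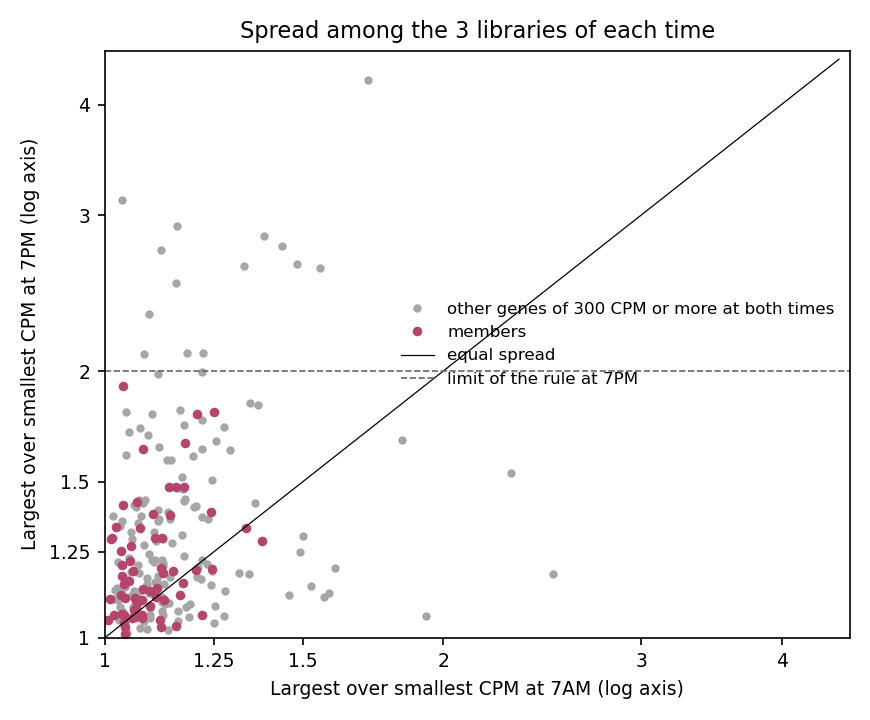
Largest over smallest CPM among the 3 libraries at 7PM is plotted against the same at 7AM (log axes) for the 68 members and the 156 other genes of 300 CPM or more at both times, with a line of equal spread and the 7PM limit of 2. Of the members, 49 lie above the line of equal spread, and the widest on the 7AM axis is at 1.38.

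In 10 members the 7PM spread was 1.4 or more, and their 7AM spread was 1.038 to 1.252. They were picked here for their 7PM spread, and the widest 7AM spread of any member was 1.38, so the narrower 7AM values follow from the choice. The widest was Peaxi162Scf01067g00112, just inside the limit of 2, with 279, 537 and 398 CPM at 7PM, against 385, 371 and 384 CPM at 7AM. Its 7PM values lay on both sides of the 7AM group, so its mean ratio of 1.07 came from 7PM libraries that differed 1.92-fold. Peaxi162Scf00263g00156 had 242, 434 and 396 CPM at 7PM, against 366, 408 and 326 CPM at 7AM, and Peaxi162Scf00158g00003 had 339.5, 439 and 245 CPM at 7PM, against 369, 447 and 389.8 CPM at 7AM. In 7 of the 10, the 7PM range held all 3 of the 7AM values, which the choice by 7PM spread and the ratio limits also favour.

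Some of these 10 members shared part of their 7PM pattern. Replicate 1 was the lowest 7PM library in 6 of the 10 and the highest in none, and replicate 2 was the highest in 7. Both held together, replicate 1 lowest and replicate 2 highest, in 5 of the 10. Over all 68 members no 7PM library stood out in this way: replicates 1, 2 and 3 were the highest in 24, 24 and 20 members and the lowest in 24, 19 and 25. In the 156 other genes of 300 CPM or more, 7PM replicate 1 was the lowest in 77 and the highest in 35. Of the 3 genes held back by the 7PM spread alone, Peaxi162Scf00165g00818 also had replicate 1 lowest and replicate 2 highest. It had 306, 642 and 452 CPM at 7PM, against 582, 636 and 519 CPM at 7AM. In the other two, replicate 1 was the highest 7PM library. Peaxi162Scf00128g00827 had 1284, 490.1 and 412 CPM at 7PM, against 628, 651 and 641 CPM at 7AM, and Peaxi162Scf00344g01910 had 809, 295 and 316 CPM at 7PM, against 405, 444 and 454 CPM at 7AM. For these genes a mean ratio near 1 (1.14 and 1.09) joined 1 high 7PM library with 2 that lay below every 7AM library.

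**Figure D5:**
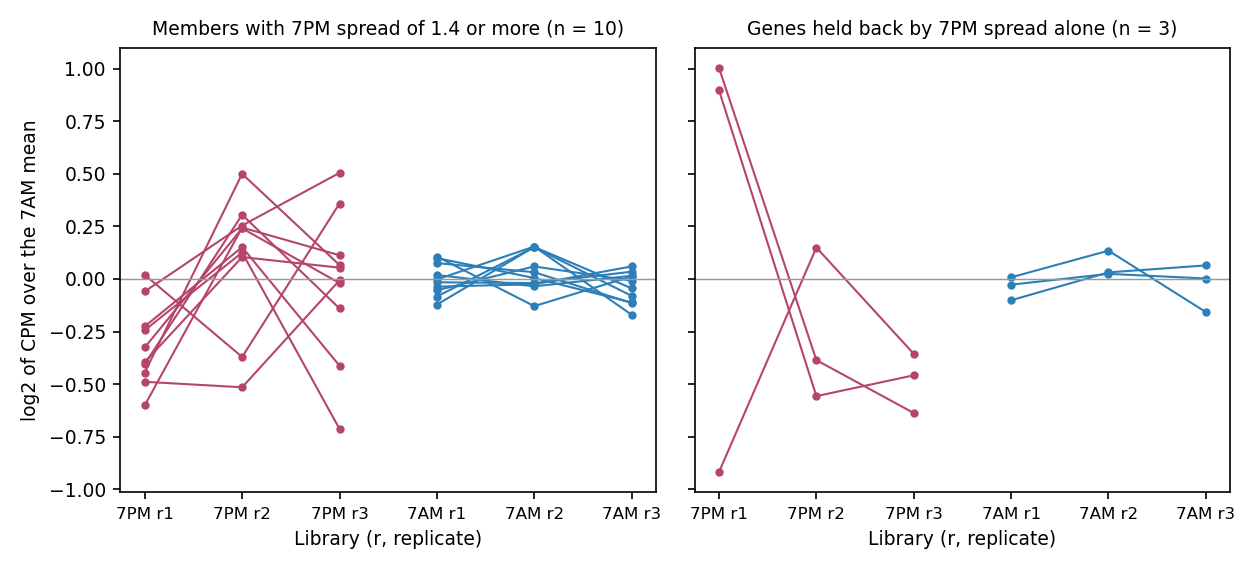
The log2 of CPM over the 7AM mean is shown for each library, 7PM left of 7AM, in the 10 members with a 7PM spread of 1.4 or more (left panel) and in the 3 genes that met every limit but that on 7PM spread (right panel), with a line joining the libraries of 1 gene at 1 time. The 7AM points of the members have a spread of 1.252 at most, while 7PM replicate 1 is lowest in 6 of the 10.

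The members were also part of the test across all genes, and their calls are listed here as a description. In the edgeR quasi-likelihood test of 7PM against 7AM over all 17515 genes (Benjamini-Hochberg adjusted p under 0.05), 9 of the 68 members were called, where 59.8% of all tested genes were called. Of the 9, 6 were higher at 7PM, beside 27.5% of all tested genes, and 3 were lower, beside 32.3%. Nothing is read from these counts, since the limits on the ratio fix them in large part. The 6 had ratios of 1.17 to 1.23 and the 3 had ratios of 0.804 to 0.825. The CPM of the times did not overlap in 28 members (15 higher and 13 lower at 7PM), where they did not overlap in 67.6% of all tested genes. Of the other 40, the 7AM values lay within the 7PM range in 12 members, and the 7PM values within the 7AM range in 3.

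Peaxi162Scf01216g00054, with the highest ratio of the 6, had 435, 436 and 462 CPM at 7PM, against 316, 379 and 386 CPM at 7AM (ratio 1.23). Peaxi162Scf00073g00057, with the lowest ratio of the 3, had 394, 430.5 and 391 CPM at 7PM, against 522, 489.5 and 500.1 CPM at 7AM (ratio 0.804). In both the groups were apart in every library. The widest 7PM spread among the 9 was 1.253. Leaving out 1 library gave 2 to 13 called members: 2 without 7AM replicate 1 or 3, 4 without 7AM replicate 2, and 13 without 7PM replicate 1. Of all tested genes, 52.3%, 51.2% and 53.2% were called without 7AM replicates 1, 2 and 3, and 60.7% without 7PM replicate 1. The split also moved with the scaling: DESeq2 size factors gave 11 higher and 1 lower, and upper-quartile factors 3 higher and 5 lower. In either direction, 59.6% and 59.8% of all tested genes were called with these factors. With library totals 49 members were called lower at 7PM, where 53.4% of all tested genes were called lower, and the other 19 were not called.

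By the scaffold number in their IDs the members were spread over 60 scaffolds of the reference. A single member lay on 53 scaffolds, 2 members on each of 6, and 3 on scaffold 37. Only 1 pair stood next to each other by the gene number in the ID, on scaffold 389. Peaxi162Scf00389g00935 had 1094, 1008 and 1026 CPM at 7PM, against 1023, 933 and 937 CPM at 7AM (ratio 1.08). Its neighbour Peaxi162Scf00389g00936 had 351, 421 and 402 CPM at 7PM, against 501, 452 and 447 CPM at 7AM (ratio 0.838). On the TMM scale the adjacent members thus leaned in opposite directions, although the libraries of Peaxi162Scf00389g00935 overlapped between the times. With library totals both ratios were below 1, at 0.826 for Peaxi162Scf00389g00935 and 0.639 for Peaxi162Scf00389g00936. Whether reads of near-identical copies were split between the members of this pair was not tested.

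The genes beside the members changed 2-fold in a share close to that of all tested genes. Taking the nearest tested gene on either side by ID gave 125 genes that are no members. Each was left out of the members by its own level or ratio, so these shares are a description. Of these, 41 (32.8%) had a fitted change of 2-fold or more, 23 higher and 18 lower at 7PM, where 30.7% of all tested genes had one. Their median change was 0.52 on the log2 scale regardless of direction, beside 0.55 over all tested genes. Their level was far below that of the members, with a median of 21.4 CPM, beside 17.1 CPM over all tested genes. This ordering assumes that the numbers in the IDs follow the order on the scaffold.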

How the data were processed

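The authors deposited raw counts of reads per gene ID, as whole numbers, for 3 libraries of 7PM and 3 of 7AM. Reads were aligned to a Petunia axillaris genome per the series' design text, and cutadapt, TopHat2 and HTSeq were used per the submitters' processing notes. Versions, settings, annotation, strand handling and multi-mapping rules are not given in the sources. Mitchell is a hybrid, so counts against that reference may be low for genes of the other parent.

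CPM were computed with edgeR 4.0.16 (R 4.3.3) from rows with a summed count of 60 or more, as counts per 1000000 of the TMM-scaled library size. SD is over 3 libraries. All these rows were tested with edgeR's quasi-likelihood test, 7PM over 7AM, with Benjamini-Hochberg adjustment and a threshold of 0.05. DESeq2 1.42.0 and limma-voom (limma 3.58.1) were alternatives. The tests were tried on simulated data. Named genes are the 5 most abundant members, the 2 evenest, the 2 with a ratio nearest 1, the 2 widest at 7AM and those beside each limit. The other members named, and the genes held back by 7PM spread, were chosen after their values were seen. The members, lists and tests were chosen with earlier results of these data known. Gene lists by product were not applied because the IDs have no names here.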

Additional observations from a re-analysis of the deposited data

How the results depend on the processing

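The rule gave 66 to 76 genes with 1 library left out, and 51 of the 68 members met it in all 6 of these and also with DESeq2 size factors and upper-quartile factors; 12 also met it with library totals. It gave 31 genes with ratio limits of 1/1.1 to 1.1, 116 with 1/1.5 to 1.5, 139 at a minimum of 200 CPM and 22 at 500 CPM. With all 9 pairs of a 7PM and a 7AM library held within the ratio limits, a setting chosen after seeing the data, 31 genes met it.

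The median log2 ratio of the members, -0.018, was -0.407 with library totals, 0.049 with DESeq2 size factors, -0.042 with upper-quartile factors and -0.041 to 0.066 with 1 library left out, the highest without 7PM replicate 1. Its sign was therefore not settled. The number of called members, 9, was 49 with library totals, 17 with DESeq2, 14 with limma-voom, and 2 to 13 with 1 library left out. The share of all tested genes called, 59.8%, was in these settings 69.5%, 57.5%, 59.8% and 51.2% to 60.7%. With the replicate number as a block 5 members were called, where 56.1% of all tested genes were called. The labels do not say that equal numbers share a plant or a day, so the numbers were not taken to pair the samples. Across genes, 7PM and 7AM libraries of the same number deviated from their time means with correlations of -0.24, 0.10 and 0.10. Other pairs ranged from -0.32 to 0.27. Deviations from a mean of 3 libraries are tied to each other, so these correlations cannot decide on a pairing. Of 50 alternatives, 32 left the value within 1.5 times (counts) or within the spread between libraries (ratio). For the rule only the number of genes was compared. Library totals, with 83 genes of which 24 were members, thus counted among the 32. The cause of the changes in the other alternatives was not tested.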
